A study of Mus musculus with 12 samples.

Results

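The proteasome is the protease complex that degrades ubiquitin-tagged proteins. The genes of its subunits, activators, inhibitor and assembly factors were taken as the gene rows whose symbol begins with Psm, then a letter from a to g, then a number. This gave 50 of 20981 genes, all annotated as protein coding. The RNA came from testes of C57BL/6 mice aged 3 months that carry the Mael-/- genotype in every group, so no comparison here is between genotypes. MAEL is a factor of the piRNA pathway, and without it male germ cells express L1, the LINE-1 retrotransposon, at high levels. The TOTAL group is the cleared testis lysate with 10 mM EDTA, which takes ribosomes apart. The INPUT group is the pool of fractions 5 to 8 of a sucrose gradient run on such lysate. The IP group is what an antibody against L1 ORF1p, the RNA-binding protein encoded by L1, pulled down from INPUT, and the BO group is what stuck to beads without antibody. Each group had 3 RNA-seq libraries, 12 in all, and whether these came from separate animals is not given in the sources used here.

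The 20S core of the proteasome is a barrel of 4 stacked rings, with alpha subunits (Psma genes) in the outer rings and beta subunits (Psmb genes) in the inner ones, and a few of the beta subunits cut proteins. The 19S regulatory particle caps the barrel: its base holds the ATPases that unfold substrates (Psmc genes) and its lid removes ubiquitin (most Psmd genes). Germ cells and immune cells swap in their own core subunits. PSMA8 replaces PSMA7 in the spermatoproteasome of spermatocytes, and PSMB8, PSMB9 and PSMB10 replace PSMB5, PSMB6 and PSMB7 in the immunoproteasome. The Psme genes encode activators that can take the place of the 19S cap.

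The deposited gene tables hold the mean of normalized counts over the 3 libraries of a group, 1 table for each of IP against BO, INPUT and TOTAL. Values of INPUT and BO are printed below on the scale of the TOTAL table, after multiplication by 0.997 and 1.31, the ratios of the IP means between tables. The tables give no value per library for BO, INPUT and TOTAL, and the authors' own test columns were not used here, so no p-value is given. For IP, the reads of each library were recovered from its 3 means, and these libraries are called a, b and c, in that order wherever 3 values are printed. They held 21387454, 19754089 and 20549345 reads on genes, whereas the depth of the other libraries could not be fully recovered. As a check of the labels, the mean of Mael was 0.65 in TOTAL, 0 in INPUT, 0.502 in BO (on the scale of the BO table, where it is what 1 read in 1 library is worth) and 0 in IP, and reads on 6562 loci of L1Md_A, a young L1 subfamily, were 3.61, 3.26 and 3.43 times as many in IP as in BO, INPUT and TOTAL. Markers of spermatocytes, Sertoli cells and Leydig cells were present in TOTAL, with summed means of 31208, 19734 and 78928. There, 7 spermatid markers summed to 352, of which Spaca1 held 231.

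A log2 ratio below is log2 of the IP mean plus 1 over the other mean plus 1, and a gene counts as higher or lower when it is past 2-fold. Only genes whose 2 group means averaged 10 or more were compared, which took in 46 members against BO and 49 against INPUT and TOTAL. Psmb11, the core subunit of the thymus, was at 0.326 in TOTAL, 0.328 in INPUT, 0 in BO and 2.31 in IP and was compared with none. Psmb8, Psmb9 and Psme2b were also too low to be compared with BO.

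Proteasome mRNAs were nearly all higher in IP than in BO, and were more often lower than higher against TOTAL. Against INPUT they were split in shares near those of genes at large. Against BO, 45 of 46 members were higher and 0 lower, where 43.9% of all genes tested were higher and 11.2% lower. The median log2 ratio was 2.02 for the members and 0.81 for all genes, and relative to the median gene 27 of the 46 were higher. The share of all genes higher relative to the median gene is not given here. Against INPUT, 11 of 49 were higher and 8 lower, with 20.5% and 14.6% of all genes, and the medians were 0.46 and 0.15. Against TOTAL, 5 of 49 were higher and 23 lower, with 20.4% and 26.2% of all genes, and the medians were -0.77 and -0.03. The member share of all normalized counts on genes was 0.524% in TOTAL, 0.299% in INPUT, 0.121% in BO and 0.363% in IP. The 3 comparisons share the IP libraries. The scaling between groups sets where 0 lies: with means scaled to their sum over genes, 2 members were higher and 9 lower than INPUT with a median of -0.07, and 2 were higher and 28 lower than TOTAL. Shares of all genes under this scaling are not given either.

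**Figure D1:**
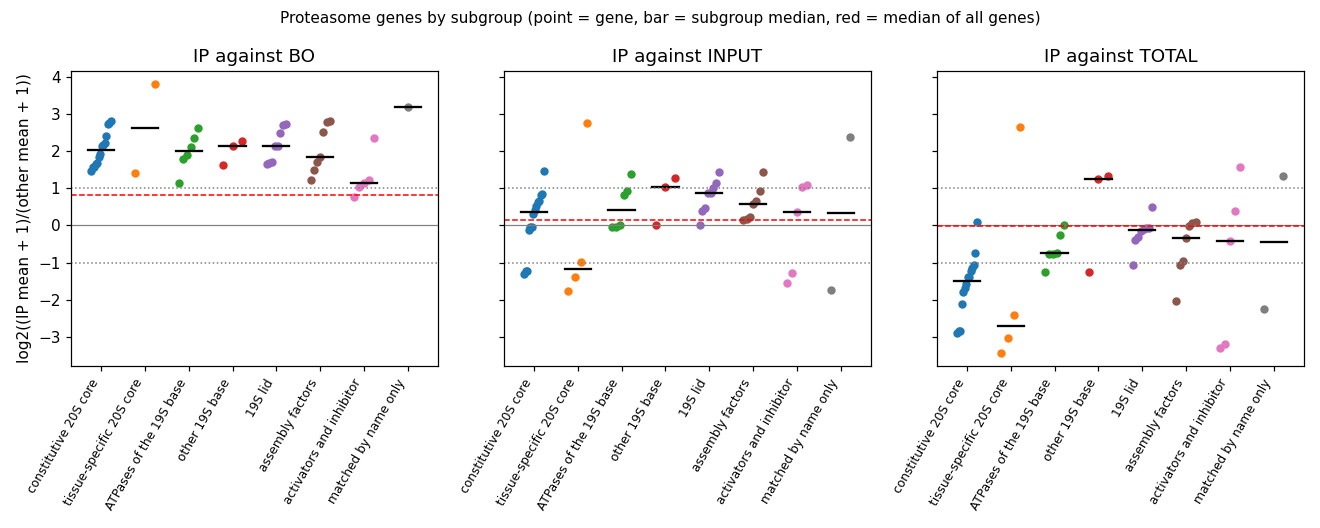
Log2 ratio of the IP mean to the BO, INPUT and TOTAL mean (vertical axis) for each compared proteasome gene (points), by subgroup. Black bars are subgroup medians, the red dashed line is the median of all genes tested and dotted lines mark 2-fold. Against TOTAL the constitutive core has a median of -1.49 and the lid one of -0.12.

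Joint calls over the comparisons are given here, and some members were in none of these sets. Genes higher than BO and lower than TOTAL numbered 19 of 46, against 7.43% of all genes compared with both. Of these, 13 belong to the 20S core. Genes higher than both BO and INPUT numbered 11 of 46, against 16.7% of all genes. They were Psma1, Psma8, Psmc3ip, Psmc6, Psmd1, Psmd2, Psmd10, Psmd11, Psmd12, Psme4 and Psmf1. Of these, Psma8, Psmc3ip, Psmd1, Psmd2 and Psme4 were also higher than TOTAL, 5 of 46 against 11.0% of all genes, so the share of members was near that of genes at large. With means scaled to their sum over genes, Psma8 and Psmc3ip were left of the 11, and Psma8 of the 5.

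**Figure D2:**
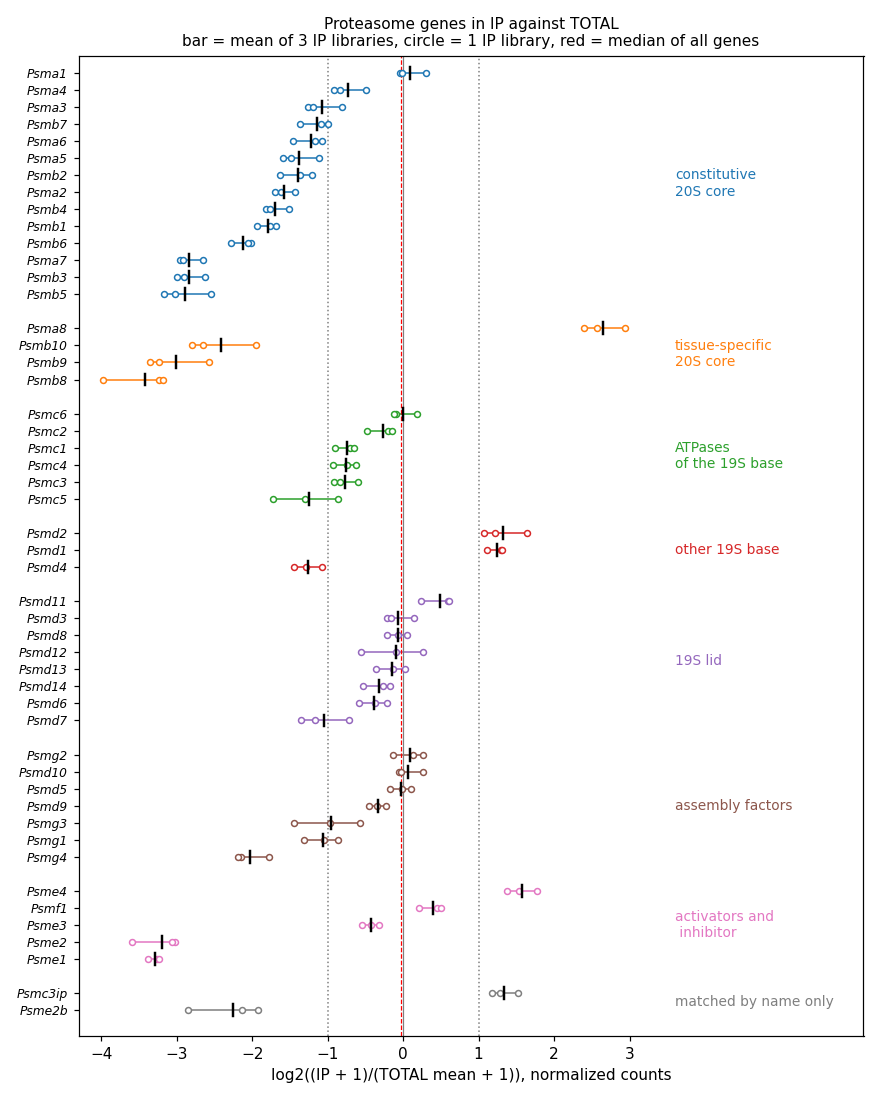
Log2 ratio of IP to the TOTAL mean (horizontal axis) for the 49 compared proteasome genes, grouped by role. Black bars are the mean of the IP group, open circles the 3 IP libraries, the red dashed line the median of all genes and dotted lines 2-fold. Psma8 lies at 2.65 and the other tissue-specific core genes between -3.42 and -2.42.

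Psma8, the alpha subunit of the spermatoproteasome, had the highest ratio of any member in all 3 comparisons. Its normalized count was 425 in TOTAL, 396 in INPUT, 192 in BO and 2676 in IP. The 3 IP libraries held 2517, 3259 and 2251, each above the means of the other 3 groups. IP was 14.0-fold higher than BO, 6.78-fold higher than INPUT and 6.29-fold higher than TOTAL, as ratios of the means within a table with nothing added. Psma8 passed 2-fold in all 3 comparisons with each of the 3 IP libraries and under each scaling tried.

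Its somatic counterpart Psma7 lay the other way, although both encode the same position of the alpha ring. Psma7 had 3479 in TOTAL, 1209.8 in INPUT, 152 in BO and 488 in IP. The IP libraries held 449, 460.1 and 554, all below the means of INPUT and TOTAL and above that of BO. The IP mean of Psma7 was 7.13-fold lower than that of TOTAL and 2.48-fold lower than that of INPUT. Per kb of the longest transcript, Psma7 stood at 2296 and Psma8 at 222 in TOTAL, and at 322 and 1395 in IP. The share of Psma8 in the sum of both was 8.81% in TOTAL, 20.6% in INPUT, 49.9% in BO and 81.3% in IP, and 81.6%, 84.8% and 76.2% in the IP libraries. A share within a group does not depend on the scaling between groups. Per kb of coding sequence in place of transcript, the share was 10.8% in TOTAL and 84.5% in IP. The order of the pair was thus reversed between TOTAL and IP, and in BO both stood at about the same level per transcript kb.

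Markers of spermatocytes moved with Psma8. All 10 listed (Sycp1, Sycp2, Sycp3, Hormad1, Dmc1, Spo11, Piwil1, Tdrd5, Hspa2 and Ddx4) were higher in IP than in BO, INPUT and TOTAL, where 11.0% of all genes were. Their medians were 3.04, 2.21 and 2.40. Their summed mean was 31208 in TOTAL, 36690 in INPUT, 22224 in BO and 182944 in IP, with a range of 156520 to 207641 over the IP libraries and none at 0. Their part in the value of Psma8 was not tested.

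The 14 constitutive core genes were lower in IP than in TOTAL as a group, with 12 lower, 0 higher and a median of -1.49. Against BO, all 14 were higher, with ratios from 1.47 for Psmb3 to 2.79 for Psma4. Against INPUT, Psma1 was higher, Psma7, Psmb3 and Psmb5 were lower, and the median was 0.36. Within the barrel, the genes with catalytic activity did not move as 1 block. Psmb5, the chymotrypsin-like subunit, had 427 in TOTAL, 134 in INPUT, 18.2 in BO and 56.8 in IP, which was the lowest core ratio against TOTAL at -2.89. Psmb6, the caspase-like subunit, had 2080.4 in TOTAL, 521 in INPUT, 102 in BO and 479 in IP, with a ratio of -2.12. Psmb7, the trypsin-like subunit, had 2572 in TOTAL, 947 in INPUT, 176 in BO and 1168 in IP, with a ratio of -1.14. The IP libraries of Psmb5 held 51.7, 46.6 and 72.2 and those of Psmb7 999, 1209 and 1295, so the gap to TOTAL was larger than the spread among them for both.

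At the other end of the core stood Psma1, an alpha-ring subunit, with 2019.8 in TOTAL, 786 in INPUT, 320.3 in BO and 2153 in IP. Its IP libraries held 1965, 2488 and 2005, on both sides of the TOTAL mean. Psma4, another alpha subunit, had 2008 in TOTAL, 677 in INPUT, 173 in BO and 1205 in IP, and its ratio of -0.74 was short of 2-fold. Psmb3, a beta subunit without catalytic activity, had 1021 in TOTAL, 332 in INPUT, 50.5 in BO and 143 in IP, with a ratio of -2.83. The remaining core genes, Psma2, Psma3, Psma5, Psma6, Psmb1, Psmb2 and Psmb4, were lower than TOTAL with ratios from -1.79 for Psmb1 to -1.08 for Psma3. Psma2 had 2162 in TOTAL, 543 in INPUT, 161 in BO and 723 in IP, Psma3 had 1358 in TOTAL, 369 in INPUT, 206 in BO and 642 in IP, and Psma5 had 909.6 in TOTAL, 242 in INPUT, 117 in BO and 348 in IP. Psma6, an alpha subunit like these, had 2455 in TOTAL, 663 in INPUT, 198 in BO and 1050.1 in IP. Psmb1 had 2746 in TOTAL, 824 in INPUT, 207 in BO and 791 in IP, Psmb2 had 1775 in TOTAL, 439.8 in INPUT, 154 in BO and 674 in IP, and Psmb4 had 3343 in TOTAL, 1058 in INPUT, 289.8 in BO and 1034 in IP. In each of these 7 genes TOTAL was highest and BO lowest, and IP exceeded INPUT except in Psmb1 and Psmb4. The lower call of Psma3 and Psmb7 was not met in every IP library.

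The immunoproteasome genes had lower counts in TOTAL than every constitutive core gene, and were lower still in IP. For such a level in bulk TOTAL, fewer cells of a type and less RNA per cell cannot be told apart. Psmb8 had 183 in TOTAL, 43.9 in INPUT, 4.11 in BO and 16.2 in IP, on 11, 16 and 15 reads in the IP libraries. The 42 reads have an exact 95% Poisson interval of 30.3 to 56.8, which covers counting error only. Psmb9 had 69.1 in TOTAL, 28.4 in INPUT, 4.55 in BO and 7.67 in IP, on 21 IP reads with an interval of 13.0 to 32.1. Psmb10 had 306 in TOTAL, 112 in INPUT, 20.3 in BO and 56.5 in IP, and 47.8, 43.1 and 78.6 in the IP libraries, a coefficient of variation of 34.1%, the highest among members whose IP mean reached 10. Against TOTAL the ratios were -3.42, -3.01 and -2.42, and all 3 IP libraries were past 2-fold below the TOTAL mean for each gene. Against INPUT they were -1.38, -1.76 and -0.98, the last of which is short of 2-fold. Psmb8 and Psmb9 both lie in the major histocompatibility complex, at chr17:34197721-34201454 (plus strand) and chr17:34181987-34187764 (minus strand) of mm10.

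Per kb of transcript the immunosubunits were the minor partner in each pair and in every group. Psmb8 made up 16.8% in TOTAL, 13.4% in INPUT, 9.59% in BO and 11.9% in IP of its sum with Psmb5, and Psmb10 20.6% in TOTAL, 20.4% in INPUT, 20.0% in BO and 9.51% in IP of its sum with Psmb7. Psmb9 made up 1.10% in TOTAL, 1.79% in INPUT, 1.47% in BO and 0.533% in IP of its sum with Psmb6. For Psmb10 the IP libraries stood at 9.42%, 7.19% and 11.7%, all below the other 3 groups. For Psmb8 they stood at 8.91%, 15.9% and 11.2%, on both sides of the INPUT share. The size of these shares depends on the length used. Per kb of coding sequence, Psmb8 made up 29.1% in TOTAL and 21.5% in IP. By that measure Psmb10 made up 10.8% in TOTAL and 4.68% in IP, and Psmb9 3.48% in TOTAL and 1.71% in IP. Leukocyte markers (9 of 10 listed were found) were also lower in IP than in TOTAL, 8 of 9 against 26.2% of all genes tested, with a median of -2.92. Their summed mean was 9158 in TOTAL, 5595 in INPUT, 1325 in BO and 1768 in IP, with 1645 to 1957 over the IP libraries and none at 0. Their part in the values of the immunoproteasome genes was not tested.

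**Figure D3:**
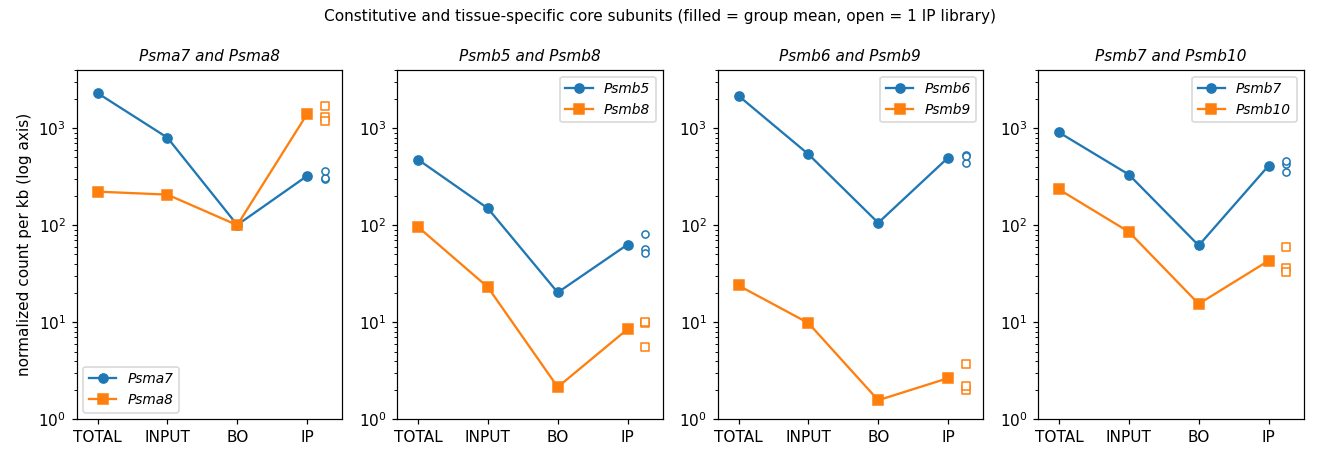
Normalized count per kb of the longest transcript (vertical log axis) of 4 pairs of interchangeable core subunits in TOTAL, INPUT, BO and IP. Filled symbols are group means and open symbols the 3 IP libraries. Psma8 passes Psma7 in IP, while Psmb8, Psmb9 and Psmb10 stay below their partners in every group.

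The 6 ATPases of the base spanned a narrow range against TOTAL, from -1.25 for Psmc5 to -0.0029 for Psmc6. Against TOTAL, Psmc5 was lower and none was higher, with a median of -0.75. Against BO all 6 were higher and against INPUT Psmc6 was. Psmc6 had 3002 in TOTAL, 1144 in INPUT, 1359 in BO and 2996 in IP, so that IP and TOTAL stood at the same level and BO, unlike in the other ATPases, exceeded INPUT. Its ratio to BO, 1.14, was the lowest of the ATPases and its ratio to INPUT, 1.39, the highest. Psmc5 had 1007 in TOTAL, 435 in INPUT, 82.6 in BO and 422 in IP, with 305, 408 and 554 in the IP libraries, the last of which was short of 2-fold below TOTAL. Psmc1 had 2499.8 in TOTAL, 839 in INPUT, 244 in BO and 1488 in IP and the highest ratio to BO, 2.61. Psmc3 had 2943 in TOTAL, 1787 in INPUT, 502 in BO and 1721 in IP, with the lowest ratio to INPUT, -0.05. Psmc2 and Psmc4 lay between these against TOTAL, at -0.27 and -0.76.

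The other base subunits bind ubiquitin or its carriers, and 2 of these 3 genes were among the highest members in IP. Psmd2, which together with Psmd1 forms the scaffold of the base, had 5794 in TOTAL, 7159 in INPUT, 3032 in BO and 14552 in IP. Psmd1 had 3947 in TOTAL, 3871 in INPUT, 2121 in BO and 9326 in IP. The IP libraries held 12128, 13478 and 18049 for Psmd2 and 8489.9, 9719.8 and 9769 for Psmd1, all past 2-fold above the TOTAL mean. Ratios against BO, INPUT and TOTAL were 2.26, 1.02 and 1.33 for Psmd2 and 2.14, 1.27 and 1.24 for Psmd1. Psmd4, the ubiquitin receptor, differed from both, with 3439.7 in TOTAL, 1417 in INPUT, 462 in BO and 1435 in IP and a ratio of -1.26 to TOTAL. All 3 of its IP libraries were past 2-fold below the TOTAL mean. Of the reads of Psmd1, some could belong to Gm21972, which shares 301 exonic bases with it on the same strand.

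The lid stood nearest to TOTAL. Against TOTAL, 1 of 8 lid genes was lower and 0 higher, with a median of -0.12, and against BO all 8 were higher with a median of 2.13. Against INPUT, Psmd11 and Psmd12 were higher, and the median was 0.88. Psmd11, a scaffold subunit of the lid, had 979 in TOTAL, 510.1 in INPUT, 212 in BO and 1375 in IP, and its ratio to TOTAL, 0.49, was the highest of the lid. Its IP libraries held 1155, 1476 and 1496, all above the other means. Psmd7, which pairs with the deubiquitinase of the lid, had 1868 in TOTAL, 651 in INPUT, 275 in BO and 899 in IP and the lowest ratio to TOTAL, -1.05. Psmd14, that deubiquitinase, had 2043 in TOTAL, 892 in INPUT, 509 in BO and 1641 in IP, and ratios of 1.69, 0.88 and -0.32 to BO, INPUT and TOTAL. Psmd12 had 1793 in TOTAL, 769 in INPUT, 386 in BO and 1682 in IP, with 1212, 1674 and 2161 in the IP libraries, which lay on both sides of the TOTAL mean, and with IP library c left out it was short of 2-fold above INPUT. Psmd8 had 2828 in TOTAL, 1351 in INPUT, 403 in BO and 2688 in IP and the highest ratio to BO, 2.73. Psmd3 had 1334 in TOTAL, 1254 in INPUT, 407 in BO and 1274 in IP and the lowest ratios to BO and INPUT, 1.64 and 0.02. Psmd6 and Psmd13, also lid subunits, had ratios of -0.38 and -0.14 to TOTAL.

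Assembly factors help build the complex and leave it, and their mRNAs were all higher in IP than in BO. Against INPUT, Psmd10 was higher and none of the 7 was lower. Against TOTAL, Psmg1 and Psmg4 were lower, none was higher and the median was -0.34. Psmg1 and Psmg2, whose products work as a pair on the alpha ring, differed: Psmg1 had 518 in TOTAL, 211 in INPUT, 68.4 in BO and 247 in IP, and Psmg2 had 481 in TOTAL, 272 in INPUT, 157 in BO and 513 in IP. The IP libraries of Psmg2 held 436, 575 and 527, on both sides of its TOTAL mean. Psmg3 and Psmg4, the other pair of core chaperones, had the lowest counts of the subgroup. Psmg3 had 198 in TOTAL, 91.0 in INPUT, 13.6 in BO and 102 in IP, and Psmg4 had 150.3 in TOTAL, 32.0 in INPUT, 14.7 in BO and 36.2 in IP, with 33.2, 43.1 and 32.2 in the IP libraries. Psmg3 shares 280 exonic bases with Gm26938 on the same strand, so that some of its reads are uncertain.

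The chaperones of the ATPase ring stood closer to TOTAL than Psmg4 and Psmg1, as did the core chaperone Psmg2 with a ratio of 0.09. Psmd10, known as gankyrin, had 555 in TOTAL, 215 in INPUT, 82.4 in BO and 583 in IP, and ratios of 2.81, 1.44 and 0.07 to BO, INPUT and TOTAL. Psmd9 had 724 in TOTAL, 367 in INPUT, 99.2 in BO and 573 in IP, with a ratio of -0.34 to TOTAL, and shares 1849 exonic bases with Gm26745, a long noncoding RNA on the opposite strand. Psmd5 had 1681 in TOTAL, 1122 in INPUT, 593 in BO and 1655 in IP, with a ratio of -0.02 to TOTAL.

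The activators lay at opposite ends. Psme4 encodes PA200, an activator abundant in testis that takes part in histone removal in male germ cells, and it was the most abundant member in IP by normalized count, with no regard to length. It had 5864 in TOTAL, 8601 in INPUT, 7436 in BO and 17447 in IP. The IP libraries held 15282, 16937 and 20122, all past 2-fold above the means of TOTAL. Ratios were 1.23, 1.02 and 1.57 to BO, INPUT and TOTAL, so that the value against INPUT was just past 2-fold, and Psme4 and Psmd2 were short of it with IP library c left out. The gene lies at chr11:30771726-30880361 on the plus strand of mm10. Psme4, Psmd1 and Psmd2 together took 18.2% of all proteasome counts in TOTAL, 40.5% in INPUT, 54.0% in BO and 48.6% in IP.

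Psme1 and Psme2, the subunits of the interferon-inducible PA28 cap, were the lowest of this subgroup. Psme1 had 1478 in TOTAL, 438 in INPUT, 67.7 in BO and 150.1 in IP, and Psme2 had 1327 in TOTAL, 348 in INPUT, 84.2 in BO and 144 in IP. Their IP libraries held 141, 154 and 156 for Psme1 and 109, 163 and 158 for Psme2, all past 2-fold below the means of INPUT and TOTAL. Psme2 was the member compared with BO that was short of 2-fold, with a ratio of 0.76. Psme3, the nuclear relative of this pair, had 1901 in TOTAL, 1113 in INPUT, 694 in BO and 1415 in IP and a ratio of -0.43 to TOTAL. Psmf1, the inhibitor PI31, had 619 in TOTAL, 383 in INPUT, 159 in BO and 812 in IP, with ratios of 2.35, 1.08 and 0.39 to BO, INPUT and TOTAL. The leukocyte marker sums given for the immunoproteasome genes apply beside Psme1 and Psme2 too, and their part was not tested.

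The symbol rule also took in 2 genes that encode no core, cap or assembly part of the complex in their own right. Psmc3ip encodes HOP2, a partner of the recombinase DMC1 in meiosis, and takes its symbol from binding PSMC3. It had 270.0 in TOTAL, 131 in INPUT, 73.9 in BO and 684 in IP. The IP libraries held 662, 780.5 and 609, and the ratios of 3.19, 2.38 and 1.34 to BO, INPUT and TOTAL were all past 2-fold in each IP library. Psmc3ip shares 385 exonic bases with Mlx on the opposite strand. Psme2b, a gene of 1 exon with a symbol derived from Psme2, had 24.8 in TOTAL, 17.1 in INPUT, 19.2 in BO and 4.43 in IP, on 12 IP reads, and reads could be shared with Psme2. With both left out, 44 members were higher than BO, 10 were higher and 7 lower than INPUT, and 4 were higher and 22 lower than TOTAL.

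Most members were lower in the pooled gradient fractions than in TOTAL. Set across tables through the IP means, 34 of 49 members were past 2-fold lower in INPUT than in TOTAL and 0 higher. Of all genes, 17.0% were lower and 327 of 14280 higher. The median was -1.28 for the members and -0.14 for all genes. Between IP and TOTAL the member median was -0.77, so it was lower in INPUT than in IP. All 14 constitutive core genes were lower, with ratios from -2.01 for Psmb2 to -1.36 for Psma1. Of the ATPases 4 of 6 were lower, of the lid 5 of 8 and of the assembly factors 4 of 7. Psmd2, Psmd1 and Psme4 had ratios of 0.31, -0.03 and 0.55 between INPUT and TOTAL, and Psma8 one of -0.10. The constitutive core thus had a median of -1.70 between INPUT and TOTAL and of 0.36 between IP and INPUT, whereas Psma8 was near TOTAL in INPUT and differed between INPUT and IP.

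Normalized counts of most members were lower in BO than in INPUT. Such counts are relative to the rest of a library, and how much RNA the bare beads held is not known from them. BO was past 2-fold lower than INPUT in 36 of 46 members and higher in 0. Of all genes, 33.4% were lower and 1270 of 13578 higher. The medians were -1.61 for the members and -0.55 for all genes. Psmc6 was the member above 0, at 0.25. In Psme4 the BO mean of 7436 was close to the INPUT mean of 8601.

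The 3 IP libraries were close to one another for most members. Over the 47 members whose IP mean reached 10, the coefficient of variation had a median of 13.2% and a range from 5.55% for Psme1 to 34.1% for Psmb10. Against BO, all 46 compared members were above the BO mean in every IP library and 43 of the 45 higher calls were met by each library. Against INPUT, each library met 7 of the 11 higher and 7 of the 8 lower calls. Against TOTAL, each met all 5 higher and 18 of 23 lower calls, the exceptions being Psma3, Psmb7, Psmc5, Psmd7 and Psmg1, and 33 members were below the TOTAL mean in all 3 libraries. The spread of BO, INPUT and TOTAL libraries does not enter these counts, and the matching counts over all genes are not given here.

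Members with longer coding sequences had higher ratios to TOTAL, as did genes at large. Spearman's correlation between the longest transcript and the log2 ratio to TOTAL was 0.44 over 49 members and 0.42 over 14577 genes, and it was 0.15 over members with the median transcript and 0.60 with the APPRIS principal one. With the longest coding length, a choice made after the data were seen, it was 0.48 over members and 0.50 over 14085 genes. The genes share libraries and these are descriptions. Among genes with a coding length of 600 to under 900 nt, the median ratio was -0.73 over 1923 genes, and among those of at least 2500 nt it was 0.82 over 3011 genes. Against the median of their own length range, 18 of 49 members were higher, and 1 of 14 constitutive core genes was, with a median difference of -0.76. Psma8 was 3.38 above its length range on the log2 scale, where 99.7% of the genes were lower, and Psmc3ip was 2.07 above it. Psmd1, Psmd2 and Psme4 were 0.42, 0.51 and 0.75 above theirs. In the lid, 4 of 8 genes were above their length range.

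Members with a higher GC content had lower ratios to INPUT. The GC content of the longest transcript ran from 37.0% for Psmc6 to 57.4% for Psma7. Spearman's correlation between GC content and the ratio to INPUT was -0.69 over 49 members and -0.28 over 14303 genes, and with the ratio to TOTAL it was -0.52 and -0.16. Psmc6 and Psmd11, with 37.0% and 39.9% GC, were higher than INPUT, while Psma7, Psmb5 and Psme1, with 57.4%, 56.6% and 56.2%, were lower. Psma2, with 39.4%, had a ratio of 0.42. Coding length had a Spearman's correlation of 0.29 with the ratio to INPUT over members.

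**Figure D4:**
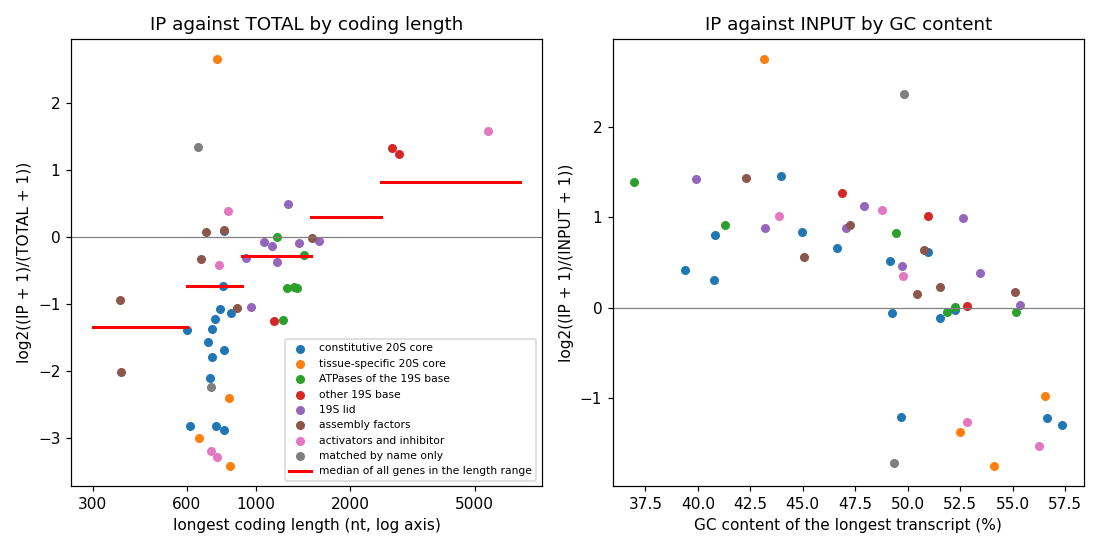
Left, log2 ratio of IP to TOTAL against the longest coding length (log axis) for 49 proteasome genes, coloured by subgroup, with red bars for the median of all genes in each of 5 length ranges. Right, log2 ratio of IP to INPUT against the GC content of the longest transcript for the same genes and colours. Psma8 stands 3.38 above the bar of its length range, and the ratio to INPUT is lower at high GC content, with a Spearman's correlation of -0.69.

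Other genes of the ubiquitin-proteasome pathway lay closer to TOTAL than the members did. Of 33 compared with TOTAL, 9 were higher and 6 lower with a median of 0.28, where 20.4% of all genes tested were higher and 26.2% lower. Of 32 compared with INPUT, 11 were higher and 0 lower, where 20.5% and 14.6% of all genes were. Of 31 compared with BO, 22 were higher and 1 lower, where 43.9% and 11.2% of all genes were. Ubiquitin-activating enzymes stood highest: Uba6 had a mean of 5105 in TOTAL and 26344 in IP, with a log2 ratio of 2.37. Pomp, the maturation factor of the 20S core, had a ratio of -2.38 to TOTAL, and Adrm1, a ubiquitin receptor of the base, one of -0.43. Usp14, Uchl5 and Ube3c, enzymes that bind the proteasome, were all higher than BO and INPUT, and Ube3c was also higher than TOTAL with a ratio of 1.70. Vcp, the p97 segregase, had ratios of 2.19, 0.81 and 1.13 to BO, INPUT and TOTAL. Nfe2l1, the transcription factor that raises subunit genes when proteasomes fail, had a ratio of -0.21 to TOTAL, and Ngly1, which activates it, one of 1.74.

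Exons of 15 members overlap those of another gene in GENCODE M21, in 4 members on the same strand, and the strand setting of the counting is not given in the sources used here. Beside the genes named above, these include Psmb5 with Mir686 (109 bases, same strand) and Psme2b with 9930111J21Rik1 (41, same). They also include Psmb7 with Nek6 (405 bases, opposite strand), Psmb8 with Gm20496 (498, opposite) and Psmb9 with Tap1 (212, opposite).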

How the data were processed

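Libraries for RNA-seq (3 in each group) were made by the submitters with a stranded total RNA kit and rRNA depletion, with less RNA going into IP and BO libraries. Per the labels, the authors used the mm10 genome, STAR 2.6.0c for mapping and DESeq2 1.24.0 for normalizing counts. The deposited signal is the mean normalized count of a group for each gene, in 3 tables of 802920 rows. The counting program, its strand setting and the gene annotation are not given in the sources used here. The tables also hold the authors' fold changes, standard errors, Wald statistics and p-values, which were not used. A table of repeat subfamilies was not used. The 4 rows of unassigned reads were left out of all values, and gene rows held 76.4% of the IP and 59.1% of the TOTAL signal beside them.

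Ratios were taken within a table, with a pseudocount of 1. The size factors of the IP libraries differ between the 3 tables, which allowed their whole reads to be solved from 3 means. Within a tolerance of 0.001, 100% of 20981 gene rows gave whole reads. This step was chosen after the data were seen, was tested on simulated means, and does not tie a library to a replicate number. Means are moved between tables by the ratio of IP means, which lay between 0.987 and 1.01 (INPUT) and between 1.30 and 1.32 (BO) over 10263 genes. Lengths and GC content come from GENCODE M21. Python 3.11.15 and SciPy 1.17.1 were used.

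Named were the highest and lowest member of each subgroup in each comparison, every member past 2-fold against TOTAL or against both BO and INPUT, and a list of subunit pairs, activators and assembly factors. Members and lists were chosen with earlier results of these data known. Members given no full set of values are named with ratios or counts. Alternatives were pseudocounts of 0.1 and 10, no minimum mean, a minimum mean of 100, 3 other scalings, a 1.5-fold threshold, and each IP library left out. A gene of the pathway list is not reported here. Intervals cover counting error only.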

Additional observations from a re-analysis of the deposited data

How the results depend on the processing

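No paired analysis was possible because BO, INPUT and TOTAL are given as group means and the recovered IP libraries carry no replicate number. No spread of those groups was used here, the authors' standard errors included, so a member near 2-fold was not told from its threshold, and Psmb8, Psmb9 and Psme2b rest on few reads. The minimum mean mattered against BO and INPUT: with none, 1 member was lower than BO and the median against BO was 1.86, and with a minimum of 100 it was 2.12, while against INPUT 4 members were lower and the median was 0.63. Centring on the median gene gave 27 higher than BO with a median of 1.21, and 7 higher than INPUT with a median of 0.31. Scaling to the sum over genes gave medians of 1.73 against BO, -0.070 against INPUT, a change of sign, and -1.29 against TOTAL, with 2 higher than INPUT and 2 higher than TOTAL. Scaling to the upper quartile gave medians of 1.35, 0.053 and -0.99, with 5 higher than INPUT. A 1.5-fold threshold gave 22 higher than INPUT. Members higher than both BO and INPUT numbered 6 when centred, 2 by the sum (Psma8 and Psmc3ip) and 5 by the upper quartile, and members higher than BO, INPUT and TOTAL numbered 3, 1 (Psma8) and 2. These scalings of joint counts were added after the data were seen. Shares of all genes are not given for the alternatives.

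With each IP library left out in turn, also added later, 44 to 45 members were higher and 0 lower than BO with medians of 1.92 to 2.10. Against INPUT 9 to 14 were higher and 8 to 9 lower, with medians of 0.39 to 0.58. Against TOTAL 5 were higher and 20 to 24 lower, with medians of -0.88 to -0.71. Those higher than both BO and INPUT numbered 9 to 14, and than all 3 groups 3 to 5, Psmd2 and Psme4 being short of it against INPUT without library c. Without the bridge, the median of BO against INPUT was -2.00. The Spearman correlation of length and ratio to TOTAL was 0.15 with the median transcript and 0.60 with the principal one. The other alternatives kept direction and stayed within 1.5 times the count or 0.1 of the median.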

Other observations

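Complexes related to the proteasome in build or in size are given as values. Of all genes tested, 20.5% were higher than INPUT, and 20.4% were higher and 26.2% lower than TOTAL. The COP9 signalosome, whose subunits are related to those of the 19S lid, had a median log2 ratio of 2.36 to BO, 1.28 to INPUT and 0.65 to TOTAL over 8 genes. Against INPUT 7 of 8 were higher, and Cops6 was at -0.05. Against TOTAL Cops2 was higher at 1.12 and Cops6 lower at -1.90. Cops6 and Psmd7 are relatives without enzyme activity that pair with the deubiquitinase-like subunits Cops5 and Psmd14, and the 4 ratios to TOTAL were -1.90, -1.05, 0.02 and -0.32. The translation initiation factor eIF3, also built on lid-like subunits, had a median of -0.53 to TOTAL over 12 genes, with 3 higher (Eif3a, Eif3b and Eif3c at 1.11, 1.16 and 1.46) and 5 lower. The CCT chaperonin had a median of 0.75 to TOTAL over 9 genes, with Tcp1 and Cct3 higher at 1.20 and 1.12.

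Gene families taken by symbol alone, most of them for small abundant proteins, stood below TOTAL as the 20S core did. A rule by symbol can also take in genes outside the family. Of all genes tested, 26.2% were lower than TOTAL. Cytosolic ribosomal protein genes had a median of -1.62 with 61 of 88 lower, mitochondrial ribosomal protein genes one of -1.05 with 41 of 77 lower, and complex I genes one of -2.10 with 34 of 43 lower. Their medians to INPUT were 0.48, 0.30 and -0.31. No test between these families and the proteasome genes was run.

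Other cell type markers, against TOTAL, had medians of -0.53 for 6 genes of spermatogonia, -1.37 for 6 of Sertoli cells and -2.57 for 6 of Leydig cells. The median was -0.67 for 4 of vessels and peritubular cells and -3.91 for 4 of 7 of spermatids. Of these 4 spermatid genes 3 were lower, while Spaca1, with a mean of 231 in TOTAL, was at 0.01.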
